A study of Mus musculus with 6 samples.

Results

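Myostatin, its antagonist follistatin and 8 further genes of muscle-secreted signals were followed here in cultured mouse muscle cells given the membrane repair protein MG53. The 10 members are Mstn, Fst, Inhba, Acvr2b, Gdf11, Gdf15, Il15, Fndc5, Metrnl and Ostn. They were taken by symbol from a list drawn up with earlier results of these data known, and make up 10 of the 27179 genes in the deposited counts. The cells were primary satellite cells, the muscle stem cells, from hindlimbs of C57BL/6 mice of genotype WT. The labels describe them as ageing without stating how old the mice were. Both groups grew in serum-containing medium with basic fibroblast growth factor, and received either bovine serum albumin (BSA, the vehicle) or recombinant human MG53 (rhMG53, labelled hMG53) for 72 h. Each group had 3 libraries, with 17374151 to 22738745 gene counts per library. No label ties a library to a mouse or a dish, so the p-values below reflect library-to-library spread only, and that spread may be technical.

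Myostatin and GDF11 are secreted ligands of the TGF-beta superfamily, made as precursors that proteases cut to free a mature dimer. Together with activin A, the dimer of the Inhba product, they bind activin type II receptors such as ACVR2B, and the signal reaches the nucleus through SMAD2 and SMAD3. Myostatin is known for limiting muscle mass, and follistatin for binding myostatin and activins and keeping them from the receptors. Myokines are proteins that muscle cells release to act on themselves or on other organs.

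None of the 10 members passed the test, and the cultures differed far more between members than between treatments. Fndc5 and Fst were abundant in all 6 libraries, Mstn was modest, and Acvr2b and Ostn were scarce. With rhMG53 the largest estimates were 1.26-fold for Gdf15 and 1.12-fold for Inhba upward, and 0.842-fold for Mstn downward. Values per gene are CPM, counts scaled to a common library size with trimmed-mean (TMM) factors. The test was edgeR's quasi-likelihood F test over 13769 genes, with a threshold of 0.05 on the adjusted p. Gene positions are those of RefSeq on GRCm38.p6.

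Several members have close relatives, such as Mstn and Gdf11, so their counts could mix if reads matched both genes. Over the GENCODE transcripts with the longest coding sequence, on GRCm38, the assembly of mm10, the longest run of identical bases was 12 between Mstn and Gdf11, 18 between Inhba and its paralogue Inhbb, and 14 between Acvr2b and its paralogue Acvr2a. A read longer than these runs matches only 1 of each pair of transcripts exactly.

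The order of the members was compared per kilobase of exon, since longer transcripts collect more counts. Exon length was the union of all exons in GENCODE, and the unit is CPM per kilobase. Fndc5 had the highest level, with a lowest, median and highest library of 84.2, 94.3 and 99.5, and stood above 96.9% of the tested genes with a known length. Fst followed at 42.9, 49.9 and 57.5. Their ranges did not overlap on this length, although with the longest coding transcript as length the range for Fst became 69.6 to 93.1 and met that of Fndc5.

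Metrnl (median 9.38) and Gdf11 (7.98) came next with overlapping ranges, which separated with the longest coding transcript as length (9.12 to 12.3 and 6.95 to 8.54). Inhba (3.89), Gdf15 (3.68) and Mstn (3.00) formed a group in which neighbours overlapped, and with the other length Inhba and Gdf15 exchanged places and neither overlapped Mstn. Mstn stood above 40.2% of tested genes. Il15 (median 0.954) was set apart from its neighbours on both sides, while Ostn (0.442) and Acvr2b (0.411) overlapped and exchanged places with the other length. Ostn stood above 11.3% of tested genes.

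**Figure D1:**
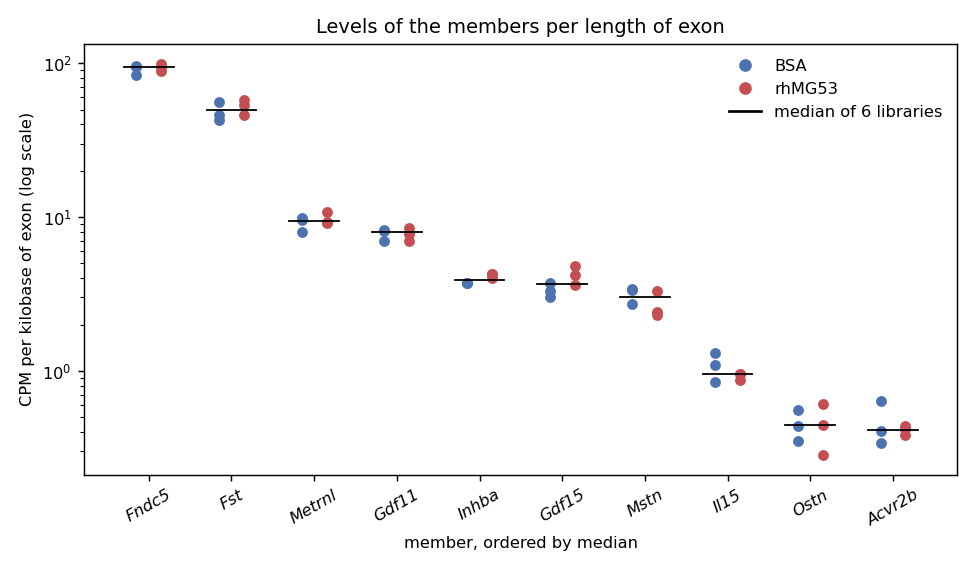
Level of each member in CPM per kilobase of exon on a log axis, with 1 point per library (BSA left, rhMG53 right) and a line at the median of the 6 libraries. Fndc5 and Fst lie near 94.3 and 49.9, Mstn near 3.00, and Ostn and Acvr2b below 1.

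A few library facts bear on the values that follow. Genes with at least 6000 bases of exon took 33.3% of counts in BSA replicate 3 and 31.8% in rhMG53 replicate 2, against 35.3% to 36.4% in the other libraries. The cells are labelled as satellite cells, and the libraries also held strong differentiation markers. The 10 markers of differentiating muscle, all tested, summed to 52534 to 55874 CPM with BSA and 50424 to 55868 CPM with rhMG53. Satellite cell markers (8 of 9 tested), led by Itga7, summed to 2339 to 2418 and 2157 to 2316 CPM. The 1 marker not tested, Calcr, was at 0.12 CPM or less in every library, and the other 8 were at 1.8 CPM or more. Over the libraries Itga7 averaged 1731 CPM and Cdh15 406 CPM. The rest of the tested markers averaged 2.50 to 78.2 CPM, with Pax7 at 9.24 CPM. Proliferation genes (7 of 8 tested) had 49.2 to 54.1 and 48.4 to 51.9 CPM. Pcna (mean 27.8 CPM over the libraries) made up most of that sum, while Mki67 averaged 1.10 CPM. Of the 7 tested, 6 had negative log2 fold changes (list median -0.30), and 0 had an unadjusted p under 0.05 in edgeR. The fibroblast list (8 of 10), led by Col1a1, had 661 to 838 CPM with BSA and 759 to 860 CPM with rhMG53. Leukocyte markers (3 of 10) summed to 6.16 to 7.60 and 6.61 to 10.4 CPM, with C1qb at 0 in all libraries. Endothelial markers (3 of 8) had 9.41 to 10.1 and 7.32 to 9.39 CPM, and smooth muscle and pericyte markers (5 of 8) 1521 to 1658 and 1413 to 1518 CPM, with Kcnj8 at 0. Schwann cell markers (3 of 6) lay between 3.09 and 4.35 CPM and adipocyte markers (1 of 6) under 1 CPM, with Retn at 0. The satellite cell, endothelial, and smooth muscle and pericyte sums were lower with rhMG53 without overlap, and the other 6 sums overlapped. Itga7 (means 1792 and 1671 CPM) made up most of the satellite cell sum, yet 5 of the 8 tested markers had positive log2 fold changes. Acta2 (1314 and 1196 CPM) made up most of the smooth muscle and pericyte sum, and its groups overlapped. Of the 5 tested markers of that list, 2 were positive and 0 were lower without overlap. The smooth muscle and pericyte sums were 1520.5 against 1517.6 CPM at their nearest. The endothelial sums were 9.41 against 9.39 CPM at their nearest. Of all tested genes, 4.83% were lower without overlap. The part of these cell types in the results was not tested. In bulk RNA, fewer cells of a type and less RNA per cell cannot be told apart.

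The ligand genes went different ways. Mstn (gene ID 17700, chromosome 1, 53061640 to 53068079) stood at 9.11, 9.27 and 7.37 CPM with BSA, replicates 1 to 3 in that order here and below, and at 8.89, 6.54 and 6.20 CPM with rhMG53. The lower pair of rhMG53 libraries lay below every BSA library, but rhMG53 replicate 1 lay among them, so the groups overlapped. Group means were 8.58 ± 1.05 and 7.21 ± 1.46 CPM (SD, n = 3 each). Its log2 fold change was -0.25 (SE 0.157, 95% interval -0.59 to 0.10, adjusted p = 0.973 in edgeR). It was -0.43 without rhMG53 replicate 1 and -0.15 without rhMG53 replicate 3, and did not pass in either case.

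Gdf11 (gene ID 14561, chromosome 10, 128880524 to 128891718), known for roles in body patterning, was at 33.2, 33.6 and 28.5 CPM with BSA and 34.7, 28.2 and 31.6 CPM with rhMG53. The groups covered the same range, and the libraries with the lowest values were BSA replicate 3 and rhMG53 replicate 2, the same pair that had the smallest share of counts on long genes. Gdf11 itself has 4062 bases of exon, under the 6000 that defined long genes, and a link was not tested. The log2 fold change of -0.0097 had a 95% interval of -0.21 to 0.19, or 0.862-fold to 1.14-fold (adjusted p = 0.997). Per kilobase, Gdf11 exceeded Mstn 2.41 to 2.57 times in the BSA libraries and 2.60 to 3.40 times in the rhMG53 libraries. This ratio was not tested.

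Inhba (gene ID 16323, chromosome 13, 16004256 to 16031609) was the member whose groups did not overlap. Its libraries stood at 23.9, 23.7 and 23.9 CPM with BSA and at 27.1, 25.8 and 27.1 CPM with rhMG53. Every rhMG53 library was higher than every BSA library, and the estimate was 1.12-fold (95% interval 1.01 to 1.24). This held for 1 of the 10 members, and for 5.94% of all tested genes in the same direction. The opposite arrangement, all rhMG53 libraries lower, was found in 0 members and 4.83% of tested genes.

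The log2 fold change of Inhba was 0.16 (SE 0.0677, 95% interval 0.011 to 0.31), with an unadjusted p of 0.0378 and an adjusted p of 0.950 in edgeR. Means were 23.8 ± 0.141 and 26.6 ± 0.745 CPM (SD, n = 3 each). The coefficient of variation between the BSA libraries, 0.593%, was smaller than the counting error of a single library, which was 4.30% to 4.89% at 419 to 541 counts. The observed spread of these 3 values therefore understates the error that their counts allow. The other activin subunit genes gave no call. Inha, which encodes the inhibin alpha chain, had a log2 fold change of 0.049, and Inhbb, the beta B chain, one of 0.085.

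**Figure D2:**
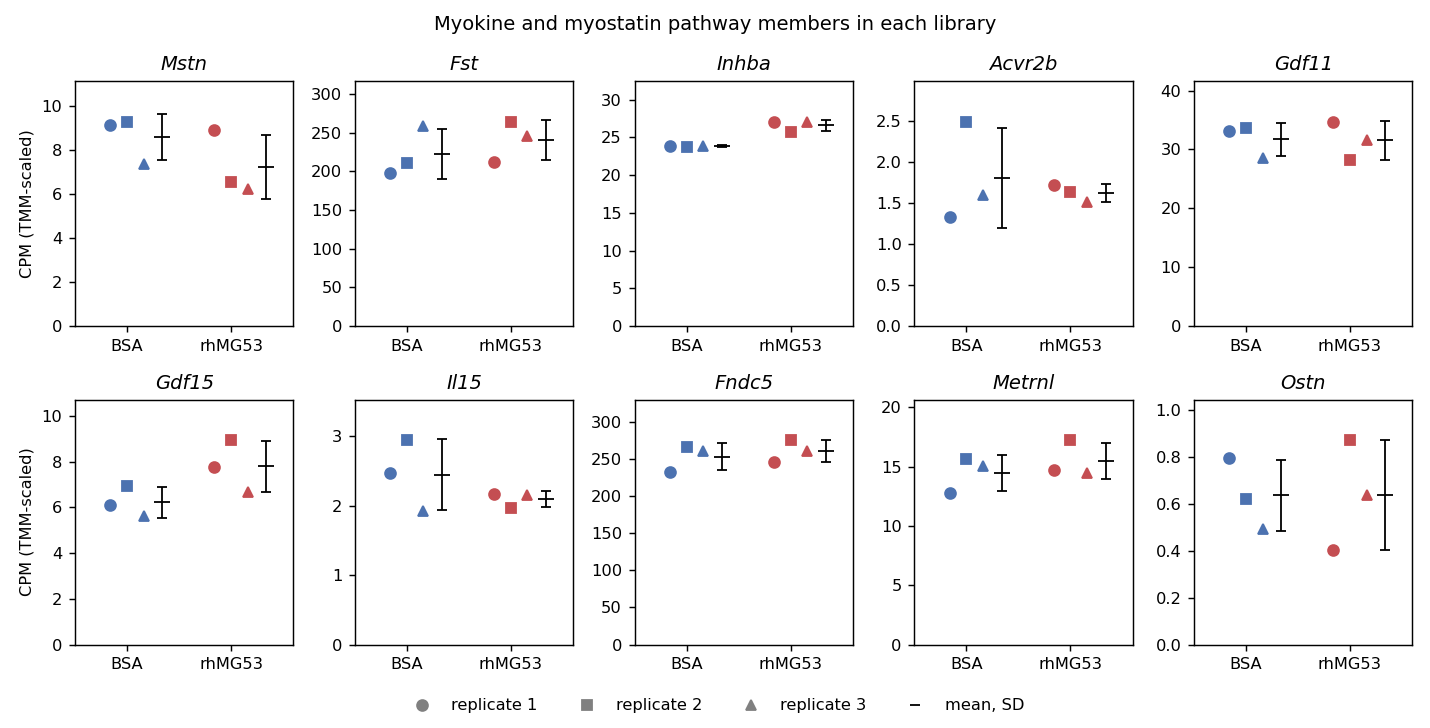
CPM of each of the 10 members in each library, on linear axes from 0, with BSA in blue, rhMG53 in red, a symbol per replicate number and the group mean with SD in black. Inhba is the panel without overlap, with BSA libraries at 23.7 to 23.9 CPM and rhMG53 libraries at 25.8 to 27.1 CPM.

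Acvr2b (gene ID 11481, chromosome 9, 119401583 to 119442148), the type II receptor bound by myostatin and activins, gave 26 to 44 counts per library. Its levels were 1.33, 2.49 and 1.59 CPM with BSA and 1.72, 1.63 and 1.51 CPM with rhMG53. The rhMG53 libraries lay inside the BSA range, whose top was set by BSA replicate 2. Its log2 fold change was -0.13 (SE 0.263, 95% interval -0.71 to 0.45, adjusted p = 0.992), with 0.16 without that library and -0.33 without BSA replicate 1. The paralogous receptor gene Acvr2a was much more abundant. Per kilobase it exceeded Acvr2b 11.2 to 21.8 times with BSA and 15.3 to 18.9 times with rhMG53, and the 95% interval of its fold change was 0.887 to 1.13. The ratio used the union of all exons as length. With the longest coding transcript, the Acvr2b range was 0.418 to 0.783 per kilobase in place of 0.338 to 0.633.

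Fst (gene ID 14313, chromosome 13, 114452262 to 114458989) stood at 197, 211 and 258 CPM with BSA and at 213, 264 and 245 CPM with rhMG53. The groups overlapped, with BSA replicate 3 and rhMG53 replicate 2 highest. Means were 222 ± 31.9 and 241 ± 26.0 CPM (SD, n = 3 each). For Fst the log2 fold change was 0.12 (SE 0.104, 95% interval -0.11 to 0.35, adjusted p = 0.981). It was 0.24 without BSA replicate 3, 0.20 without rhMG53 replicate 1, 0.037 without BSA replicate 1 and 0.044 without rhMG53 replicate 2, and with BSA replicate 3 and rhMG53 replicate 2 both left out it was 0.17. Exons of Fst overlap the antisense gene Gm47040 by 115 bases, and reads there cannot be assigned with certainty because the strand setting is not given.

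Follistatin message exceeded myostatin message in every library. The ratio of Fst to Mstn per kilobase was 12.8, 13.4 and 20.6 with BSA and 14.1, 23.8 and 23.3 with rhMG53. Both groups held libraries near 14 and above 20, and the ratio was not tested. Against the activin A gene, Fst was 11.5 to 15.02 times higher in the BSA libraries and 10.9 to 14.3 times higher in the rhMG53 libraries. These ratios used the union of all exons as length. With the longest coding transcript, Fst rose to 69.6 to 93.1 per kilobase while Mstn and Inhba did not change, so both ratios would be higher.

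Gdf15 (gene ID 23886, chromosome 8, 70629393 to 70632470) encodes a stress-induced cytokine of the same superfamily that acts on a hindbrain receptor. It was at 6.10, 6.95 and 5.61 CPM with BSA and at 7.78, 8.94 and 6.67 CPM with rhMG53. The top pair of libraries were both rhMG53, while rhMG53 replicate 3 lay below BSA replicate 2. Means were 6.22 ± 0.678 and 7.79 ± 1.14 CPM (SD, n = 3 each). The log2 fold change of 0.33 (SE 0.143, 95% interval 0.014 to 0.64) had an unadjusted p of 0.0421 and an adjusted p of 0.950. Leaving out 1 library at a time, it ran from 0.22 without rhMG53 replicate 2 to 0.42 without rhMG53 replicate 3. With BSA replicate 3 and rhMG53 replicate 2 both left out it was 0.16.

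Inhba and Gdf15 were the 2 members with an unadjusted p under 0.05, both higher with rhMG53. Among all tested genes 5.2% had such a p, and 2.98% had it with higher values in rhMG53. After adjustment 0 members passed in edgeR, as in DESeq2 and limma voom, while 0.0218% of tested genes (3 genes) passed in edgeR. At an unadjusted p under 0.05, DESeq2 gave 0 members and limma voom 2. Of the 10 members 5 had a positive and 5 a negative log2 fold change, with a median of 0.017 against a median of 0.0014 over all tested genes.

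**Figure D3:**
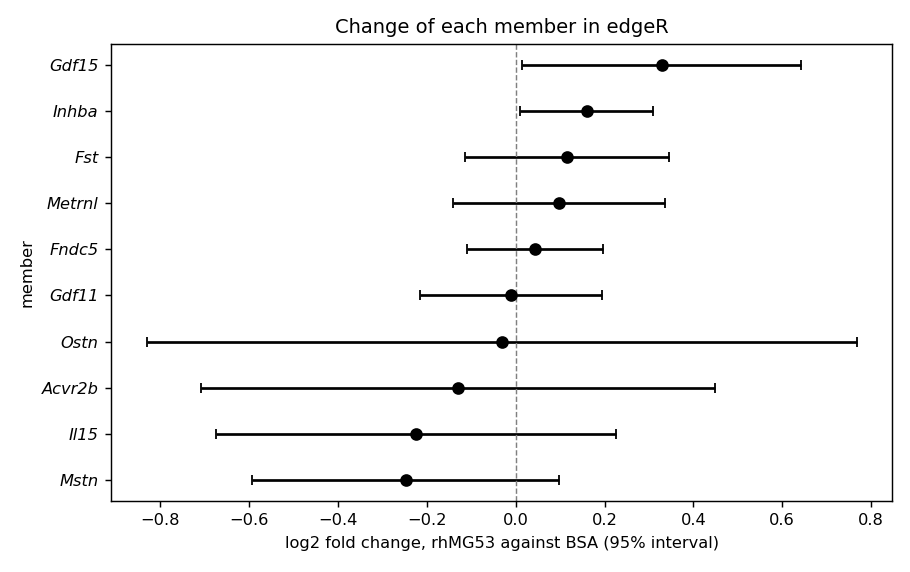
Log2 fold change of each member, rhMG53 against BSA, with its 95% interval from edgeR. Intervals for Gdf15 (0.014 to 0.64) and Inhba (0.011 to 0.31) lie just above 0 before adjustment, and that for Ostn is the widest at -0.83 to 0.77.

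Fndc5 (gene ID 384061, chromosome 4, 129136870 to 129144593) encodes the membrane protein from which irisin is released. Its levels were 233, 265 and 261 CPM with BSA and 246, 275 and 261 CPM with rhMG53. The groups overlapped almost fully, with replicate 1 lowest in each. Its log2 fold change was 0.043 (SE 0.0694, adjusted p = 0.991), with a 95% interval of 0.927-fold to 1.15-fold. Of the other members, Inhba alone had a narrower interval on the log2 scale. Without BSA replicate 1 the value for Fndc5 was -0.012, and without rhMG53 replicate 2 it was 0.0032.

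Metrnl (gene ID 210029, chromosome 11, 121702427 to 121717389) encodes meteorin-like, a secreted factor of muscle and fat. Libraries gave 12.8, 15.7 and 15.1 CPM with BSA and 14.7, 17.2 and 14.5 CPM with rhMG53. The lowest value was BSA replicate 1 and the highest rhMG53 replicate 2, and of the other 4 both rhMG53 libraries lay below both BSA libraries. For Metrnl the log2 fold change was 0.098 (SE 0.108, 95% interval -0.14 to 0.34, adjusted p = 0.986), with 0.012 without BSA replicate 1 and 0.015 without rhMG53 replicate 2.

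Il15 (gene ID 16168, chromosome 8, 82331624 to 82403252), a cytokine that supports lymphocytes and is also made by muscle, gave 35 to 56 counts per library. It was at 2.48, 2.94 and 1.92 CPM with BSA and at 2.17, 1.96 and 2.14 CPM with rhMG53. All rhMG53 libraries lay inside the BSA range. For Il15 the log2 fold change was -0.22 (SE 0.204, 95% interval -0.67 to 0.23, adjusted p = 0.981), with -0.36 without BSA replicate 3 and -0.083 without BSA replicate 2.

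Ostn (gene ID 239790, chromosome 16, 27307641 to 27351209), which encodes musclin, a peptide that binds the natriuretic peptide clearance receptor, gave only 8 to 18 counts per library. The counts were 18, 11 and 9 with BSA and 8, 16 and 11 with rhMG53, or 0.49 to 0.80 and 0.40 to 0.87 CPM. At this depth the counting error of a single library was 23.6% to 35.4%, and the 95% interval of 0.562-fold to 1.70-fold was the widest among the members (log2 fold change -0.031, adjusted p = 0.998). Exons of Ostn overlap the antisense gene Gm32312 by 184 bases.

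Genes around the members were counted in 7 lists holding 81 genes besides the members, of which 66 had enough counts to be tested. None passed in edgeR, DESeq2 or limma voom, and 3 had an unadjusted p under 0.05 in edgeR, all with positive log2 fold changes. Among all tested genes 5.2% had such a p, and 2.98% had it with positive values. Groups did not overlap for 8 of the 66 genes with rhMG53 higher and 1 with rhMG53 lower. The shares over all tested genes were 5.94% and 4.83%. Positive values were found for 42 of the 66 genes, or 63.6%, against 50.5% over all tested genes. The medians were 0.038 and 0.0014.

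Among receptors, Acvr2b included, 6 of 9 genes were tested and 1 had a positive log2 fold change (median -0.032). The most abundant per kilobase were Acvr2a, the type I receptor gene Tgfbr1 and the BMP receptor gene Bmpr2. Tgfbr3, a co-receptor that presents ligands, had a log2 fold change of 0.21 (adjusted p = 0.973), and Tgfbr1 one of -0.028. Bmpr2 was at 43.9 CPM in BSA replicate 3 and 38.1 CPM in rhMG53 replicate 2, against 71.0 to 77.4 CPM in the other libraries. The co-receptor gene Cripto was at 0 in all libraries.

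Antagonists and processing proteases, Fst among them, included 11 tested genes, 5 with positive and 6 with negative values (median -0.0024). Fst was the most abundant of them per kilobase. Next came Furin, the protease that cuts many such precursors, and Ltbp3, a binding protein that anchors latent ligands. They were followed by Bmp1, a protease of the family that frees latent myostatin. The log2 fold changes of Furin, Ltbp3 and Bmp1 were -0.011, -0.0024 and 0.054. The follistatin relative Fstl3 went from 16.5 ± 1.58 to 18.7 ± 0.545 CPM (SD, n = 3 each), a log2 fold change of 0.18 (adjusted p = 0.965). Dcn, a matrix proteoglycan that binds such ligands and also marks fibroblasts, went from 16.6 ± 1.45 to 19.0 ± 0.947 CPM (0.19, adjusted p = 0.950). The summed fibroblast list, of which Dcn is a part, is given above with the library facts.

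SMAD mediators and feedback genes had positive log2 fold changes in 9 of 10 tested genes, or 90%, against 50.5% over all tested genes. Their median was 0.059, and 0 had an unadjusted p under 0.05. A joint shift of the list was not tested. Smad7, the inhibitory SMAD that this pathway induces, had the smallest p. It was at 10.2, 8.76 and 10.9 CPM with BSA and 11.2, 13.3 and 11.1 CPM with rhMG53, groups that did not overlap (log2 fold change 0.25, SE 0.118, adjusted p = 0.950). Ski, a repressor of SMAD activity, was at 149, 146 and 146 CPM with BSA and 160.3, 154 and 161 CPM with rhMG53 (0.11, adjusted p = 0.965). Smad7 and Ski were the 2 of 10 genes higher without overlap, an arrangement found in 5.94% of all tested genes. Pmepa1, another feedback inhibitor, was the most abundant of the list per kilobase, with a log2 fold change of 0.049.

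For the other myokines, 7 of 11 receptor and partner genes were tested. Gfral, the GDF15 receptor, had 0 counts in all libraries, and Kit, reported as a receptor of meteorin-like, had 1 count in all. Integrin genes Itgb5 and Itgav, whose products form a reported irisin receptor, and the natriuretic peptide receptor gene Npr2 were the most abundant per kilobase. Their log2 fold changes were 0.12, -0.083 and -0.011, and Itgb5 had the smallest p of the list (adjusted p = 0.950), with 111 to 117 CPM with BSA and 123 to 125 CPM with rhMG53.

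Regulators of Fndc5 and Gdf15 were all tested, 5 with positive and 4 with negative values. Nfe2l2, the antioxidant factor NRF2, was at 88.8, 82.6 and 90.9 CPM with BSA and at 100.2, 92.6 and 94.0 CPM with rhMG53 (log2 fold change 0.13, adjusted p = 0.965). Ddit3, the stress factor CHOP, had a log2 fold change of 0.15 (adjusted p = 0.973). Atf4 and Egr1, both abundant, had values of -0.022 and -0.087, and Ppargc1a, the coactivator that induces Fndc5 in muscle, one of -0.015.

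Other secreted muscle factors held 23 tested genes, 19 with positive and 4 with negative log2 fold changes (median 0.10). Positive values made up 82.6%, against 50.5% over all tested genes, and a joint shift was not tested. The list held all 3 of the genes with an unadjusted p under 0.05, among them Tgfb2 and Tgfb1. Tgfb2 went from 72.2 ± 1.12 to 81.2 ± 2.53 CPM (0.17, SE 0.0575, adjusted p = 0.935) and Tgfb1 from 38.2 ± 4.30 to 45.8 ± 4.85 CPM (0.26, SE 0.0968, adjusted p = 0.940), both SD with n = 3 each. The most abundant per kilobase were Lgals1, Igf2 and Sparc, with log2 fold changes of 0.054, -0.040 and 0.032.

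**Figure D4:**
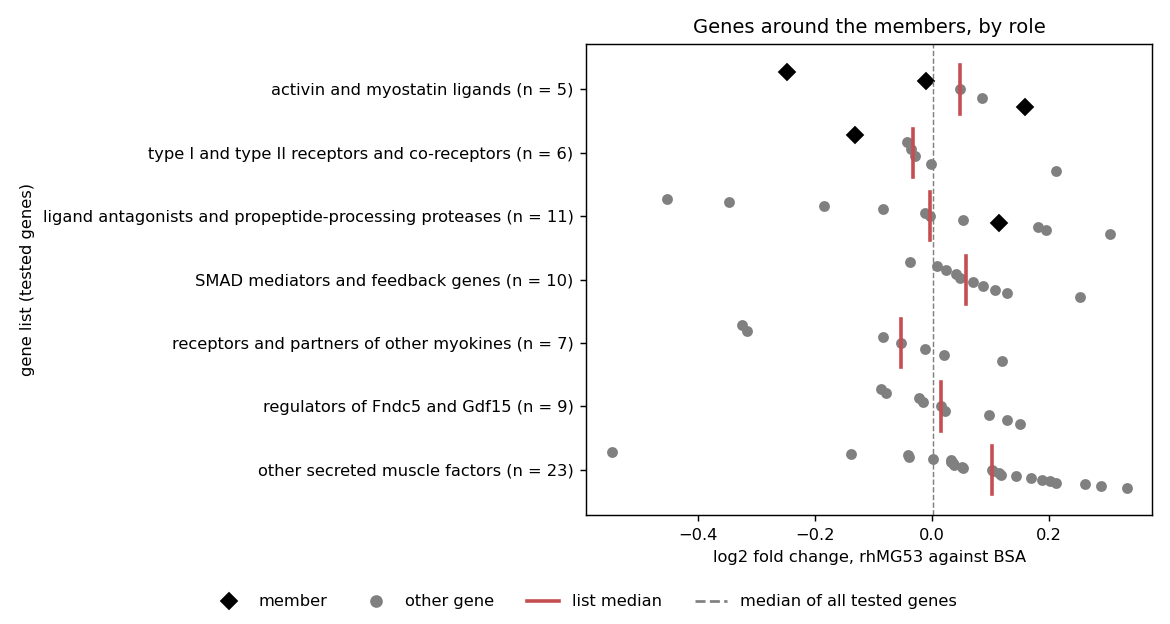
Log2 fold change, rhMG53 against BSA, of each tested gene in the 7 lists, with members as black diamonds, other genes as grey points, list medians in red and the median of all tested genes as a dashed line. Medians lie between -0.052 and 0.10, and Mstn is the lowest of the ligand genes at -0.25.

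The genes most like Mstn and Gdf15 over the 6 libraries were sought among 10197 genes averaging 5 CPM or more, by Pearson's r of log2 CPM. For Mstn they were Ahcyl2 (r = 0.995), Ttc23 (0.985) and Chn1 (0.983), and for Gdf15 Spryd7 (0.986), Crtc1 (0.977) and Apool (0.976). The 7 members at that level each had a gene with r of 0.985 to 0.996, so a high best match over 6 libraries was common to them. All points share the libraries and their scaling, and the values are descriptions only.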

How the data were processed

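The authors deposited a table of raw read counts for 27179 NCBI gene IDs in 6 libraries. Per the submitters' processing notes, the build was mm10 and the tools were STAR, featureCounts and edgeR. For versions, annotation, strand setting and multi-mapping reads: not given in the sources used here. All columns were matched to a library by the labels, and 0 were left over. Symbols came from RefSeq (GRCm38.p6, 25275 IDs named). GENCODE M21 supplied exon lengths and transcript sequences.

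Genes were filtered with filterByExpr (minimum count 10, total 15), scaled with TMM factors and tested with edgeR 4.0.16 in R 4.3.3 (quasi-likelihood F test, 2-sided, treatment as the only term). Benjamini-Hochberg adjustment ran over 13769 genes. The SE is the log2 fold change divided by the square root of F. Same-numbered libraries had correlations of deviations from group means of 0.19, -0.13 and -0.15, so the numbers were not treated as pairs. Replicate libraries differed by more than sampling noise (chi-square per degree of freedom at least 4.88).

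The members and lists were chosen with earlier results of these data known. Besides members, the text names for each list the 2 genes of smallest p with at least 5 CPM and the 3 most abundant per kilobase. Ppargc1a, Kit, Gfral, Cripto, Calcr, Cdh15, Pax7 and Mki67 were named after their values were seen. A few items are not reported here. Alternatives were RLE, upper quartile and library size scaling, DESeq2 1.42.0, voom (limma 3.58.1), no count filter, a floor of 5 CPM on the mean, a replicate block and leaving out each library. Leaving out BSA replicate 3 and rhMG53 replicate 2 together, and the longest coding transcript as length, were added after the data were seen.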

Additional observations from a re-analysis of the deposited data

How the results depend on the processing

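No member and no gene of the 7 lists passed under any of the 15 alternatives. The lowest adjusted p of a member in any of them was 0.703. The number of members with an unadjusted p under 0.05, 2 in the main fit, also varied. It was 1 with upper quartile scaling, no count filter or the replicate block, and 0 with DESeq2. Leaving out 1 library at a time gave 0 without BSA replicate 1 and 1 otherwise. The remaining alternatives gave 2. Mstn and Il15 stayed negative, and Fst, Inhba, Gdf15 and Metrnl positive, in every alternative in which they were tested. Gdf11 had 0.0042 with library size scaling. Leaving out 1 library at a time, log2 fold changes ran from -0.086 to 0.064 for Gdf11, -0.012 to 0.082 for Fndc5, -0.33 to 0.16 for Acvr2b, -0.33 to 0.23 for Ostn, -0.082 to 0.18 for Inha, -0.086 to 0.043 for Tgfbr1 and -0.17 to 0.035 for Itgav. Over all genes 3 passed, against 6 with no count filter, 5 with DESeq2, 0 with the replicate block, 0 to 4 with a library left out (0 without BSA replicate 2) and 10 without BSA replicate 3 and rhMG53 replicate 2 together. With the replicate block Mstn had a log2 fold change of -0.25 and Gdf15 one of 0.32. The causes of these shifts were not tested. Depth limits Ostn, Acvr2b and Il15, at 8 to 56 counts per library.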
